A study of Mus musculus with 6 samples.

Results

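Transcript levels in C2C12 cells carrying a hairpin against the Pkm1 splice form of pyruvate kinase (shPkm1) were compared with those in C2C12 cells carrying a scrambled, non-targeting hairpin (shScr). Each group had 2 libraries, so 4 of the 6 libraries of the series entered the comparison, and the other 2 libraries, labelled shPkm2, were used to show where shPkm1 differed from both and also entered the model that tested every gene, through the filter, the scaling and the shared estimate of spread. A fit of only the 4 libraries called 3864 genes higher and 3671 lower, against 4018 and 3966. C2C12 is an immortalized line of mouse myoblasts, cells that leave the cell cycle and fuse into myotubes when serum is lowered. All 3 groups were stable hairpin lines grown in DMEM with fetal bovine serum, then switched to DMEM with horse serum and insulin-transferrin-selenium and harvested after 48 h. The labels give the genotype of the control as WT and those of the others as knockdown of Pkm1 or of Pkm2. The hairpin sequences, and whether a line was 1 clone or a pool, are not given in the sources used here. Nothing says that the 2 libraries of a group came from separate cultures, so p-values measure only the spread between these libraries.

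Pyruvate kinase makes pyruvate and ATP in the last step of glycolysis. The Pkm gene is spliced into a form with constitutive activity, Pkm1, which is typical of adult muscle, heart and brain, or a form with regulated activity, Pkm2, which is typical of proliferating and embryonic cells. The forms differ by the use of 1 of 2 mutually exclusive exons, which are shown because they are all that separates the intended target from the other form. Both exons have 167 bases and are exon 9 of their GENCODE transcripts on the plus strand of chromosome 9 in GRCm38, at chr9:59675029-59675195 for Pkm1 and chr9:59675568-59675734 for Pkm2. They differ at 64 positions and are identical at 61.7%, and capitals mark the bases that differ between them.
Pkm1 exon: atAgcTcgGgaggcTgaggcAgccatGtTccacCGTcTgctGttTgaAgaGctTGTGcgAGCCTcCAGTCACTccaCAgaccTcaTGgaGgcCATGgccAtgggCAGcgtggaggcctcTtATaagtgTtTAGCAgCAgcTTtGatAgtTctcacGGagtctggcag
Pkm2 exon: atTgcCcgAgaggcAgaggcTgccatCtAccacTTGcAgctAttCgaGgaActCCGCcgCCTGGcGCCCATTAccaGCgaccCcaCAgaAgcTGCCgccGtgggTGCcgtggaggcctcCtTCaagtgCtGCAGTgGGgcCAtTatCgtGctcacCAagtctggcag
The deposited estimated counts of the Pkm1 transcript were 15844 and 16970 in shScr and 5854 and 5856 in shPkm1, so both shPkm1 libraries were far below both controls. The Pkm2 transcript had 31147 and 43712 in shScr and 30825 and 37021 in shPkm1, with overlapping groups. These isoform counts depend on how the authors' software shared reads between near-identical transcripts and were not tested. Summed over its transcripts, Pkm was at 3019 and 3472 CPM (counts scaled to library size with TMM factors) in shScr and at 1998 and 2186 in shPkm1, lower in both libraries (log2 fold change -0.63, SE 0.13, adjusted p = 0.00107). Among the libraries labelled shPkm2 the Pkm1 transcript was also low, at 6635 and 6909, and the Pkm2 transcript was at 70489 and 71460, above every other library. These libraries are therefore named by their label throughout.

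Libraries held between 18216896 and 19796036 estimated counts, and 12643 of 17558 genes had enough counts to be tested. Replicates correlated across genes at r = 0.988 in shScr and 0.994 in shPkm1, with the control pair the more variable (chi-square per degree of freedom 32.3 against 6.16). In the edgeR quasi-likelihood fit, 63.1% of tested genes passed an adjusted p of 0.05, 4018 (31.8%) higher and 3966 (31.4%) lower in shPkm1, and these shares are the background against which each gene group is read. In 81.0% of tested genes the shPkm1 libraries did not overlap the shScr libraries. A change of at least 2-fold was called in 1598 genes (12.6%) upward and 1190 (9.41%) downward. Scaling by library totals alone shifted the median log2 fold change of all genes by 0.19 and the share of calls that were higher from 50.3% to 65.8%. Of 141 tested muscle genes 125 were lower in shPkm1, 97 of them at least 2-fold, of 156 cell cycle genes 126 were higher, and of 127 interferon genes 121 were lower (median -2.49). The summed level of the muscle list was 114271 and 87013 TPM in shScr against 42442 and 44770 in shPkm1, and that of the cell cycle list 1795 and 2370 against 4155 and 4015. These lists moved together with the matrix, fibroblast, mitochondrial, chemokine and proteasome groups below, and their part in those changes was not tested. Muscle markers were still present in every control and shPkm1 library, with Myog, a muscle transcription factor, at 2336 and 1988 CPM in shScr and 1097 and 1162 in shPkm1, and Myod1 at 409 and 376 against 208 and 214. In bulk RNA, fewer cells of a type and less RNA per cell cannot be told apart.

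**Figure D1:**
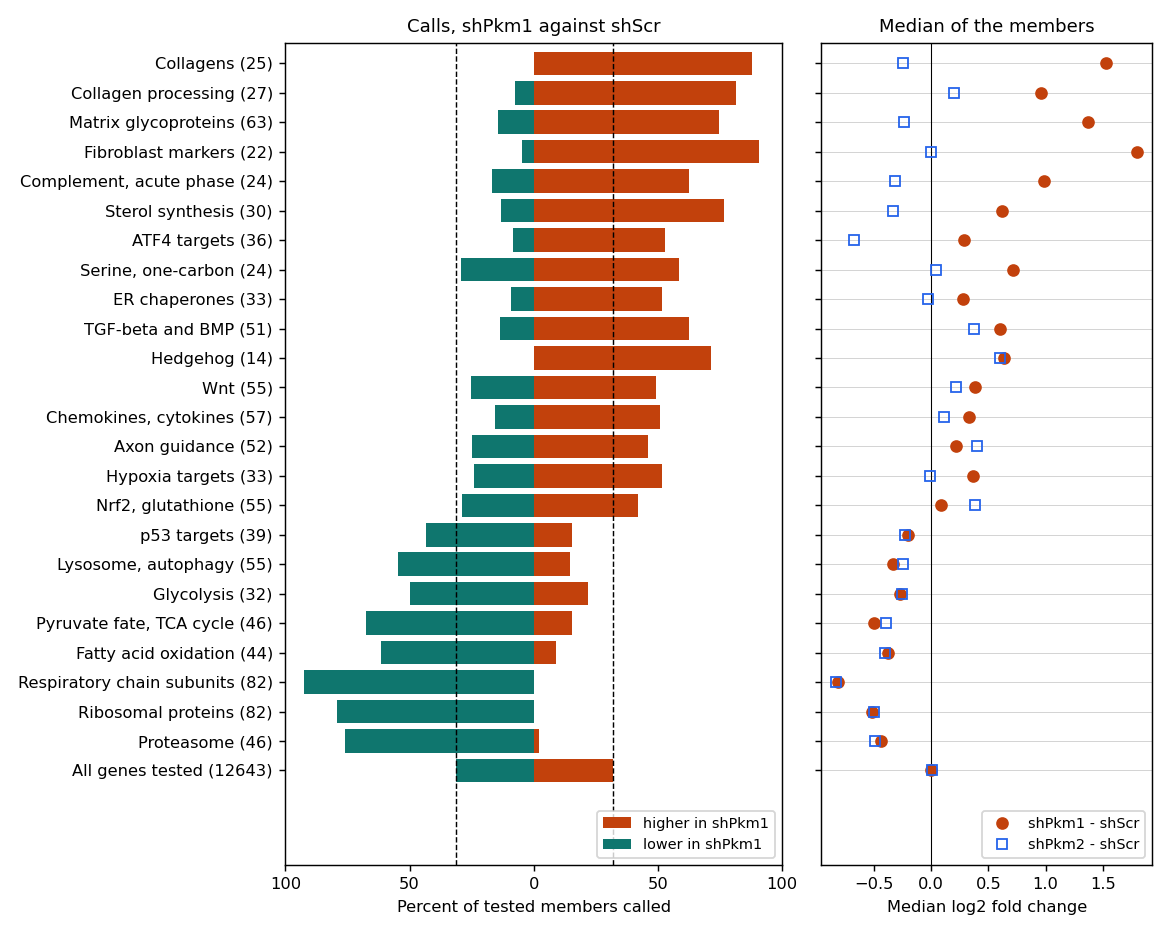
Percent of tested members of 24 gene groups called higher or lower in shPkm1 than in shScr (left; number tested in brackets, dashed lines at the shares over all genes) and the median log2 fold change of the members for shPkm1 and for the libraries labelled shPkm2, each against shScr (right). Collagens, collagen processing, matrix glycoproteins and fibroblast markers have medians between 0.96 and 1.80 in shPkm1 and between -0.25 and 0.20 in the libraries labelled shPkm2.

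Most genes of the extracellular matrix were higher in shPkm1 than in both other groups of libraries. Of 25 tested collagen genes, 22 rose against shScr and none fell, with a median log2 fold change of 1.53 against 0.00 over all genes. The same 22 of 25 compares with 31.8% of all genes called higher. Collagen I is the main fibrillar collagen of connective tissue. Its chain Col1a1 was at 1641 and 1468 CPM in shScr, 8232 and 8605 in shPkm1, and 154 and 139 in the libraries labelled shPkm2. The shPkm1 libraries were thus the highest and the libraries labelled shPkm2 the lowest, with log2 fold changes of 2.44 (SE 0.14) against shScr and 5.84 (SE 0.16) against the libraries labelled shPkm2. Col1a2, which encodes the other chain, was at 1019 and 1112 CPM in shScr, 5321 and 5346 in shPkm1, and 924 and 871 in the libraries labelled shPkm2. Col3a1, the collagen with the highest mean TPM (reads scaled by transcript length), was at 2839 and 3368 CPM in shScr and 8909 and 9024 in shPkm1, a log2 fold change of 1.53 (SE 0.15). The largest collagen changes were in minor chains of collagen fibrils. Col14a1 went from 0.634 and 0.847 CPM to 22.7 and 25.1, and Col11a1 from 1.20 and 1.47 to 35.5 and 37.7, with no overlap of groups in either gene. The basement membrane chains Col4a1 and Col4a2 rose by less, with log2 fold changes of 0.47 and 0.42. Col23a1, Col7a1 and Col25a1 made up the 3 without a call, and 1 collagen was called lower without either control library. In 21 of the 25 genes shPkm1 was also called higher than the libraries labelled shPkm2, where 12.3% of all genes were higher in both comparisons.

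Enzymes and chaperones that build collagen followed the same direction. Of 27 tested genes of collagen processing, 22 rose and 2 fell, with a median of 0.96. Lox, the lysyl oxidase that crosslinks collagen and elastin, was at 120 and 121 CPM in shScr and 821 and 803 in shPkm1, and P4ha3, a subunit of prolyl 4-hydroxylase, at 11 and 10.1 against 50.2 and 46.1. Sparc, a collagen-binding glycoprotein with the highest mean TPM of this group, was at 4453 and 4744 CPM in shScr, 11993 and 11909 in shPkm1 and 2596 and 2680 in the libraries labelled shPkm2. All of these groups were separate. Loxl2, another lysyl oxidase, fell, from 22.7 and 29.0 CPM to 17.3 and 17.9 (log2 fold change -0.56, SE 0.13), and was highest in the libraries labelled shPkm2, at 51.5 and 53. Adamts14 also passed as lower (log2 fold change -0.31, adjusted p = 0.0186), and lost its call without shPkm1 replicate 1 (-0.24, adjusted p = 0.153), with library totals alone (-0.12, adjusted p = 0.368) and with DESeq2 (-0.31, adjusted p = 0.0535).

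**Figure D2:**
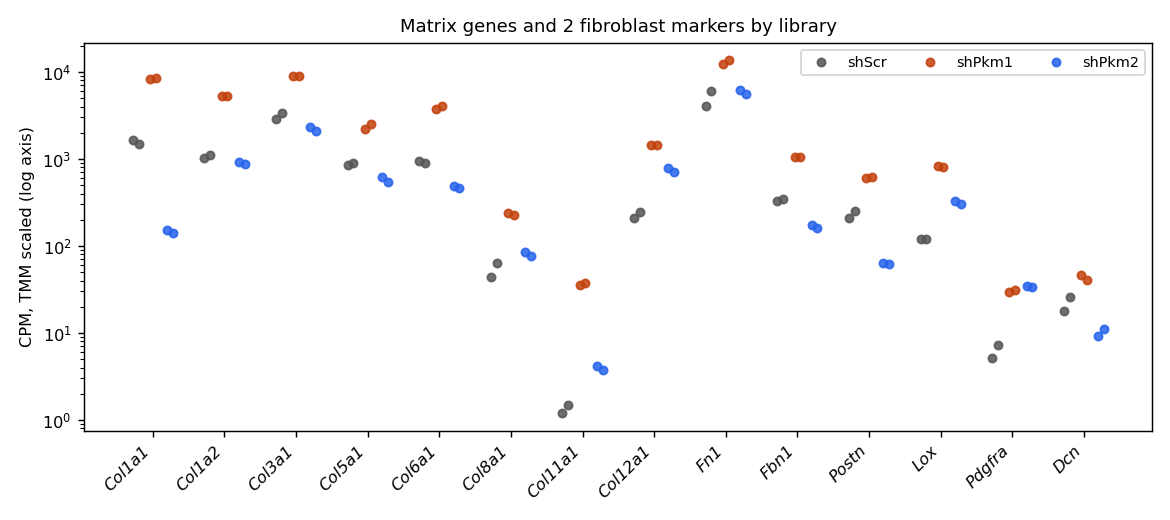
CPM on a log axis of 12 matrix genes and the fibroblast markers Pdgfra and Dcn in each of the 6 libraries, 2 points per group. The shPkm1 points lie above both other groups in all genes shown except Pdgfra, where they lie beside the libraries labelled shPkm2 (34.6 and 33.8 CPM).

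Among 63 tested glycoproteins and proteoglycans of the matrix, 47 rose and 9 fell, with a median of 1.37. Fmod, a small leucine-rich proteoglycan that binds collagen fibrils, was at 42.8 and 31.2 CPM in shScr and 774 and 765 in shPkm1, and stood at only 6.97 and 6.01 in the libraries labelled shPkm2. Bgn, another such proteoglycan and the member with the highest mean TPM, was at 1165 and 1505 CPM against 6160 and 6158. Dcn, of the same kind, had 18 and 25.6 CPM in shScr and 46.2 and 41.1 in shPkm1, a log2 fold change of 1.00 that was below the group median. Mfap5, a microfibril protein, rose from 1.27 and 1.47 CPM to 38.1 and 39.1, and Cilp, a cartilage matrix protein, from 7.54 and 9.72 to 192 and 203. Cilp had only 2 and 3 counts in the libraries labelled shPkm2. Fibronectin (Fn1), a glycoprotein that integrins bind, was at 4078 and 6044 CPM in shScr and 12468 and 13597 in shPkm1, and fibrillin (Fbn1) at 326 and 343 against 1054 and 1063. Postn, a matricellular protein, was at 210 and 251 CPM in shScr, 607 and 613 in shPkm1, and 63.7 and 61.4 in the libraries labelled shPkm2. Among the fallen members were Npnt, an integrin ligand, from 489 and 406 CPM to 105 and 91.3, and Cilp2, a relative of Cilp, from 12.8 and 15 to 2.02 and 2.22. Cilp2 is also counted in the muscle list. Agrn, which organizes the neuromuscular junction, fell too (log2 fold change -1.65).

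Matrix proteases and their inhibitors split by gene. Of 44 tested, 23 rose and 12 fell, and without shPkm1 replicate 1 the fallen were 7. Mmp2, a gelatinase, was at 83.3 and 106 CPM in shScr, 1066 and 1099 in shPkm1 and 43.4 and 43.6 in the libraries labelled shPkm2 (log2 fold change against shScr 3.52, SE 0.13). Its inhibitor Timp3 was at 62.7 and 51.3 CPM in shScr and 505 and 444 in shPkm1. The other gelatinase went the other way: Mmp9 was at 6.91 and 24.7 CPM in shScr and 1.17 and 1.37 in shPkm1 (log2 fold change -3.64, SE 0.50), a gene in which the controls differed widely. Mmp3, a stromelysin, had 2.79 and 7.51 CPM against 0.532 and 0.910. The fall of Timp2, the inhibitor with the highest mean TPM, from 1253 and 1676 CPM to 1078 and 1085, was not called without shScr replicate 2 (log2 fold change -0.21, adjusted p = 0.104), without shPkm1 replicate 1 (-0.42, adjusted p = 0.105) without shPkm1 replicate 2 (-0.44, adjusted p = 0.0842) or with library totals alone (-0.25, adjusted p = 0.153).

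Integrins, the receptors for these matrix proteins, and focal adhesion genes had 17 of 35 called higher and 6 called lower, 3 without shPkm1 replicate 1. The median was 0.21, 0.37 without shScr replicate 1, 0.45 without shScr replicate 2 and 0.40 with library totals alone. Itga1, a subunit of a collagen receptor, was at 0.570 and 0.847 CPM in shScr and 8.04 and 7.53 in shPkm1, and Itga11, another such subunit, at 23.6 and 25.6 against 136 and 142. Itgb1, their common partner, and Itga10 had no call (log2 fold changes 0.02 and 0.00). Itga6, a subunit of laminin receptors, fell from 75 and 64.0 CPM to 41.8 and 44.0, and Itgb6 from 13.6 and 11.5 to 4.69 and 6.07. Zyx, the group's member with the highest mean TPM, had no call (log2 fold change 0.05).

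Markers of mesenchymal and fibroblast-like cells were read next, as the labelled cell type is the myoblast. Of 29 markers, 22 were tested, 20 rose and 1, Ly6a, fell, with a median of 1.80, which was -0.01 in the libraries labelled shPkm2. Clec3b (0 and 1 counts in shScr, 67 and 76 in shPkm1), Dpt (13 and 4 against 102 and 89) and Meox1 (5 and 1 against 12 and 13) passed the filter through shPkm1. Such members could be tested only because they are high there, so their part of the count supports nothing. Cd34, a surface marker of progenitors, was at 8.18 and 7.46 CPM in shScr and 165 and 147 in shPkm1, and Gpx3, a secreted glutathione peroxidase, at 12 and 12.7 against 97.5 and 91.3. The transcription factor genes Osr1 and Prrx1 were at 2.16 and 2.09 against 10.9 and 12.4 CPM and at 48.6 and 54.7 against 189 and 169. Pdgfra, a receptor that marks fibro-adipogenic progenitors in muscle, went from 81 and 128 counts to 561 and 619, and had 735 and 708 in the libraries labelled shPkm2. Its relative Pdgfrb went from 170 and 199 CPM to 715 and 749, and was at 226 and 199 in the libraries labelled shPkm2. Other defining markers were at or near 0 in every control and shPkm1 library. Thy1 and Tcf21 had 0 counts in all 4, Twist1 had at most 1 and Lum at most 5. The fibroblast marker list includes Col1a1, Col3a1, Dcn and Mfap5, which are also in the matrix groups. The part of other cells in the matrix changes was not tested. The summed level of the list was 4564 and 6539 TPM in shScr, 15250 and 15125 in shPkm1, and 13640 and 13933 in the libraries labelled shPkm2, so the latter were also above the controls.

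Markers of other lineages were mixed. Of 27 tested bone and cartilage markers 12 were called higher and 5 lower, with a summed level of 643 and 887 TPM in shScr, 1621 and 1596 in shPkm1, and 3811 and 3696 in the libraries labelled shPkm2. Low members such as Ucma, at 3 and 4 counts in shScr against 33 and 43 in shPkm1, passed the filter through shPkm1, so they support nothing. Runx2, a transcription factor of bone, had 223 and 355 counts against 829 and 754, and Spp1, which encodes osteopontin, had 2830 and 3763 against 7747 and 8300. Gdf5, a growth factor of joints, was lower, at 67 and 44 counts against 4 and 4, as was Scx, a tendon transcription factor, at 3092 and 3664 against 1838 and 2482, while Ibsp had 0 and Acan at most 1. Of 25 measured endothelial, immune and epithelial markers, 18 had too few counts to be tested. The other 7 were all called, 5 higher and 2 lower, but such low genes can pass the filter through the group where they are high, so this count supports nothing. The list was at summed levels of 7.17 and 12.2 TPM in shScr against 47.8 and 52.4 in shPkm1. Krt14, a keratin of basal epithelium, had 25 and 50 counts against 390 and 525. The members called lower were Vwf, at 72 and 32 counts against 22 and 17, and Itgam, at 30 and 22 against 7 and 1, while Epcam had 0 and Pecam1 at most 2. Fat cell markers had 7 of 17 higher (41.2%) and 6 lower (35.3%), against 31.8% and 31.4% of all genes. Cebpa was at 182 and 187 counts against 453 and 540, Cd36 at 72 and 35 against 14 and 5, Plin4 at 77 and 56 against 25 and 17, and Adipoq and Plin1 at most 1. Klf15, at 4 and 1 against 37 and 45, also passed the filter through shPkm1 and supports nothing. Neural and glial markers had 4 of 13 higher (30.8%) and 5 lower (38.5%), shares near those of all genes. Map2 was at 16 and 20 counts against 108 and 128, Nefl at 130 and 277 against 55 and 50, Nes at 27327 and 34400 against 18332 and 21534, and Snap25 at 0.

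Outside the muscle, cell cycle and interferon lists, the largest rises were mostly in genes with few counts in the control, which are given as counts because a fitted fold of such a gene depends on the model. Cdhr1, a photoreceptor cadherin, had 5 and 6 counts in shScr, 2067 and 2079 in shPkm1 and 15 and 16 in the libraries labelled shPkm2. Aoc3, a copper amine oxidase of vessel and fat cells, had 6 and 3 against 863 and 992, and Megf6 had 2 and 6 against 508 and 611. Sfrp1, a secreted Wnt antagonist, had 0 counts in both controls and 198 and 202 in shPkm1, at least 54.6-fold higher than a floor of 3 counts per library. Clec11a, a secreted growth factor of bone and blood stem cell niches, had 1 and 0 counts against 103 and 111, a ratio of 186 with a 95% exact counting interval from 32.99 to 7372. Ripk3, a kinase of necroptosis, had 0 and 1 against 91 and 115, and Ltc4s, which makes leukotriene C4, had 3 and 2 against 298 and 389. Lgalsl, a galectin-like gene, had 1 and 1 against 164 and 166. Ppl, a desmosomal plakin, had 2 and 1 against 202 and 190, and Entpd2, an ectonucleotidase, had 3 and 1 against 127 and 179. Aff3, a nuclear transcription elongation protein, had 5 and 0 against 170 and 168. Sfrp2 had more counts in the control, 70 and 159, against 8655 and 9668 in shPkm1, and was at 4.44 and 8.98 CPM in shScr, 461 and 489 in shPkm1 and 32.9 and 31.9 in the libraries labelled shPkm2. These intervals and floors cover counting error only.

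Among the largest falls was Wfdc1. It encodes a secreted protein with a whey acidic protein domain and had 116 and 81 counts in shScr and 2 and 1 in shPkm1, a ratio of 75.6 with a 95% exact counting interval from 25.5 to 369.9. Patj, a scaffold of tight junctions, fell from 191 and 164 CPM to 11.4 and 12.2 (log2 fold change -3.91, SE 0.12) and was at 15.1 and 14.7 in the libraries labelled shPkm2. Atp9a, a phospholipid flippase, went from 8.68 and 10.4 CPM to 0.213 and 0.253. Cyfip2, a regulator of actin branching, went from 14.3 and 7.74 CPM to 0.799 and 0.404. Cpa1, a carboxypeptidase, was at 13.5 and 21.1 CPM against 1.33 and 0.809. Muscle genes outside the muscle list were among them: Dhrs7c, a reductase of the sarcoplasmic reticulum, at 62.4 and 17.1 CPM against 1.86 and 1.16, and Popdc2, a membrane protein of striated muscle, at 96.7 and 32.0 against 4.69 and 4.15. In both of these genes the 2 controls differed by over 3-fold. Ccl8, a chemokine, fell from 8.43 and 22.1 CPM to 0.799 and 0.303.

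A gene was taken as apart when shPkm1 was called in the same direction against shScr and against the libraries labelled shPkm2, 2 comparisons that share the shPkm1 libraries. There were 1549 such genes upward (12.3%) and 1001 downward (7.92%), of which 629 (4.98%) and 213 (1.68%) differed at least 2-fold in both comparisons. Against the libraries labelled shPkm2 alone, 27.3% of genes were higher and 25.7% lower in shPkm1. The downward count was 490 without shPkm1 replicate 1, 635 without shPkm1 replicate 2 and 657 without the library labelled shPkm2 replicate 1. Tril, which modulates Toll-like receptors, was at 0.380 and 0.452 CPM in shScr, 17.7 and 17.3 in shPkm1 and 0.282 and 0.239 in the libraries labelled shPkm2. Cdsn, an adhesion protein of skin, was at 1.58 and 1.24, 53.8 and 56.3, and 1.60 and 1.15 CPM in the same order. Mest, an imprinted gene, was at 0.951 and 1.69, 52.1 and 52.9, and 0.471 and 0.334 CPM. In these 3 genes the groups other than shPkm1 were alike in being almost silent. Among genes lowest in shPkm1, Ogdhl, a relative of the oxoglutarate dehydrogenase, was at 52.0 and 61.3 CPM in shScr, 3.89 and 4.60 in shPkm1 and 38.0 and 32.6 in the libraries labelled shPkm2. Tspan7, a tetraspanin, was at 17.9 and 13.2, 1.22 and 1.06, and 13.3 and 15.1 CPM. Dync1i1, an intermediate chain of cytoplasmic dynein, was at 22.4 and 21.9, 0.479 and 0.860, and 6.87 and 7.30 CPM. Igf2bp3, an RNA-binding protein of embryonic cells, was at 5.58 and 6.21, 0.479 and 0.657, and 10.9 and 12.6 CPM. Zfp521, a zinc finger factor, was at 6.08 and 4.01, 0.319 and 0.455, and 5.18 and 5.77 CPM. Rorb, Igsf5 and Nefm were lowest in shPkm1 and highest in the libraries labelled shPkm2. Nefm, a neurofilament chain, was at 5.83 and 12.7 CPM in shScr, 1.12 and 1.47 in shPkm1 and 34.2 and 31.6 in the libraries labelled shPkm2.

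Secreted Wnt regulators moved in both directions. Wnt ligands bind Frizzled receptors, Sfrp proteins sequester them and R-spondins enhance their signal. Of 55 tested Wnt pathway genes 27 rose and 14 fell, with a median of 0.38. Besides Sfrp1 and Sfrp2 above, Wnt7b was lower, at 6.28 and 9.55 CPM in shScr, 0.479 and 0.506 in shPkm1 and 15.4 and 15.7 in the libraries labelled shPkm2. Rspo3 was at 2.28 and 5.25, 0.586 and 0.101, and 4.33 and 3.24 CPM in the same order. The receptor Fzd9 fell from 7.42 and 3.50 CPM to 1.33 and 1.57.

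TGF-beta, BMP and hedgehog genes were called mostly higher. Of 51 tested TGF-beta and BMP genes 32 rose and 7 fell (median 0.60), and 15 were also higher than in the libraries labelled shPkm2, with none lower in both. The ligand Bmp4 was at 3.99 and 6.04 CPM in shScr and 52.1 and 52.0 in shPkm1, and its antagonist Grem1 at 4.56 and 7.34 against 33.1 and 31.3. In the libraries labelled shPkm2 Bmp4 was at 10.4 and 10.3 CPM, and Grem1 was higher still, at 56.7 and 54.0. Chrd, another BMP antagonist, fell from 32.0 and 27.6 CPM to 12.6 and 13.7, as did the co-receptor Rgmb, from 43.0 and 58.1 to 17.4 and 16.2. Fstl1, the member with the highest mean TPM, was at 427 and 498 CPM against 975 and 939. Of 14 tested hedgehog genes 10 rose and none fell, although 3 were called lower without shScr replicate 1. Ptch1, the receptor and a target of the pathway, was at 4.94 and 3.95 CPM in shScr, 21.2 and 19.2 in shPkm1 and 11.3 and 10.7 in the libraries labelled shPkm2. Gas1, a co-receptor, was at 108 and 166 CPM against 310 and 327. The hedgehog median against shScr was 0.64 for shPkm1 and 0.60 for the libraries labelled shPkm2.

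In the insulin-like growth factor system 10 of 22 tested genes rose and 7 fell. The 2 ligands moved in opposite directions. Igf1 was at 2.73 and 3.62 CPM in shScr, 72.3 and 59.4 in shPkm1 and 1.32 and 0.859 in the libraries labelled shPkm2 (log2 fold change against shScr 4.36, SE 0.17). Igf2, which myoblasts induce as they differentiate, was at 1431 and 660 CPM in shScr, 205 and 179 in shPkm1 and 23.4 and 24.3 in the libraries labelled shPkm2 (log2 fold change against shScr -2.45, SE 0.25). The binding protein Igfbp3 rose from 10.1 and 19.6 CPM to 91.0 and 89.1. Igfbp2, the member with the highest mean TPM, had no call, at 325 and 572 CPM against 369 and 438, and its direction depended on the control library kept: the log2 fold change was -0.51 without shScr replicate 1 and 0.31 without shScr replicate 2, both called.

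Growth factors of other families rose more often than they fell, with 27 of 53 tested FGF, EGF, PDGF and VEGF genes higher and 12 lower. This was not particular to shPkm1: the median against shScr was 0.52, and 0.76 in the libraries labelled shPkm2. Fgf10 was at 0.317 and 0.339 CPM in shScr and 11.8 and 8.39 in shPkm1, and the receptor Fgfr4, which marks differentiating myoblasts, at 1.46 and 1.24 against 11.9 and 11.6. Erbb3, a neuregulin receptor, fell from 62.2 and 49.2 CPM to 13.9 and 12. Vegfb was at 106 and 101 CPM against 50.5 and 52.9, while the libraries labelled shPkm2 were at 94.0 and 91.2.

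Inflammatory mediators outside the interferon list were called higher in 29 of 57 tested chemokine, cytokine and NF-kappaB genes and lower in 9, with a median of 0.33, or 0.51 without shScr replicate 2 and 0.53 with library totals alone. Cxcl12, a stromal chemokine, was at 18.5 and 32.2 CPM in shScr, 195 and 182 in shPkm1 and 24.3 and 27.8 in the libraries labelled shPkm2. Il11ra1, the receptor of interleukin 11, was at 3.55 and 3.67, 22.7 and 21, and 2.92 and 2.91 CPM. Tnfaip3, a feedback inhibitor of NF-kappaB, fell from 60.7 and 49.5 CPM to 20.3 and 23.4. Of 24 tested complement and acute phase genes 15 rose and 4 fell (median 0.99, and -0.31 in the libraries labelled shPkm2), and 13 were also higher than in the libraries labelled shPkm2. The fallen were 0 without shPkm1 replicate 1 and 2 without shPkm1 replicate 2 or shScr replicate 2. C1ra, a protease of the classical pathway whose near copy C1rb makes its counts uncertain, was at 69.1 and 98.9 CPM in shScr and 168 and 176 in shPkm1. Clu, an extracellular chaperone, was at 0.697 and 0.565 CPM against 5.38 and 6.02.

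Most genes of sterol synthesis and uptake were higher in shPkm1 than in both other groups of libraries. Sterol synthesis runs from acetyl-CoA through mevalonate and squalene to cholesterol, and its genes are induced together by SREBP factors when sterols are low. Of 30 tested genes 23 rose and 4 fell, with a median of 0.62, and 20 were apart upward. Hmgcs1, which makes HMG-CoA, was at 93.3 and 82.3 CPM in shScr, 201 and 184 in shPkm1 and 72.3 and 68.1 in the libraries labelled shPkm2 (log2 fold change against shScr 1.13, SE 0.10). Idi1, an isomerase of the mevalonate branch, was at 27.7 and 17.6, 62.9 and 61.5, and 21.5 and 28.4 CPM in the same order. Later enzymes followed: Sqle at 86.1 and 72.8 CPM against 133 and 132, Lss at 30.6 and 28.1 against 42.9 and 47.3, Msmo1 at 55.5 and 47.0 against 81.1 and 76.3, and Sc5d at 18.6 and 16.7 against 41.0 and 37.4. In each of these genes the shPkm1 libraries were above both controls. The regulator Srebf1 was at 110 and 102 CPM in shScr and 167 and 196 in shPkm1, while Srebf2 had no call. The last step, Dhcr7, fell from 79.8 and 51.5 CPM to 36.0 and 37.0, and Scap, the escort of SREBP factors, from 75.4 and 79.5 to 41.5 and 46.4. Fdps, with the highest mean TPM, rose by a log2 fold change of 0.36, and the call was lost without shScr replicate 2 (0.24, adjusted p = 0.0526) or without shPkm1 replicate 2 (0.32, adjusted p = 0.0896).

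Promoters of the sterol genes were searched for a sequence feature that the expression data did not choose. The 250 bases upstream of each annotated start (RefSeq, GRCm38.p6) were searched on both strands for CCAATC, a form of the CCAAT box bound by NF-Y, a known partner of SREBP. A gene with several starts counted when any of its windows held a match. It was present in 16 of 23 sterol genes with a promoter entry, in 16.6% of all 27025 genes with an entry and in 22.8% of the tested ones. This excess compares the list with other genes and tells nothing about shPkm1. Within the list the site was in 12 of the 17 risen genes, 2 of the 3 fallen genes and both genes without a call, and the remaining gene was not tested. The promoters are shown for the 3 risen genes with the largest log2 fold changes among those with a match in a window that holds at most 30 exonic bases of GENCODE M21, with the match in capitals (GATTGG where it reads on the other strand). They lie at chr9:42264301-42264550 (minus strand), chr11:60210472-60210721 (minus strand) and chr10:76531355-76531604 (plus strand), and the match starts 25, 31 and 63 bases upstream of the start. Srebf1 has 3 annotated starts, and the window shown belongs to 1 that lies inside the gene's span.
Sc5d: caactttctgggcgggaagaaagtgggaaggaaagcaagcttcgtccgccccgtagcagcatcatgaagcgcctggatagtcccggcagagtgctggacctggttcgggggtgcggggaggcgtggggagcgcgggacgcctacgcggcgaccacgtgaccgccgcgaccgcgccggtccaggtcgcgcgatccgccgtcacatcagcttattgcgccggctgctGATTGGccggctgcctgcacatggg
Srebf1: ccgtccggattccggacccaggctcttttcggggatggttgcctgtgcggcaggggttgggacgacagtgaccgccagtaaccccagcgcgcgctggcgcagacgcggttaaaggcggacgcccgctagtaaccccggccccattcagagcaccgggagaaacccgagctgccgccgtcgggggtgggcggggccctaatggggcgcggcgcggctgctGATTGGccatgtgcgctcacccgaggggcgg
Lss: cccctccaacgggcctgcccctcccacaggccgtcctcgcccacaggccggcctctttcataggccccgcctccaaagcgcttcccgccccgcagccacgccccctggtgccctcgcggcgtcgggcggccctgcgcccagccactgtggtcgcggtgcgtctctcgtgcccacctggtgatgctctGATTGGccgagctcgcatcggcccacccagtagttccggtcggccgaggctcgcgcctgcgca
A match describes these letters and is not evidence of binding.

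**Figure D3:**
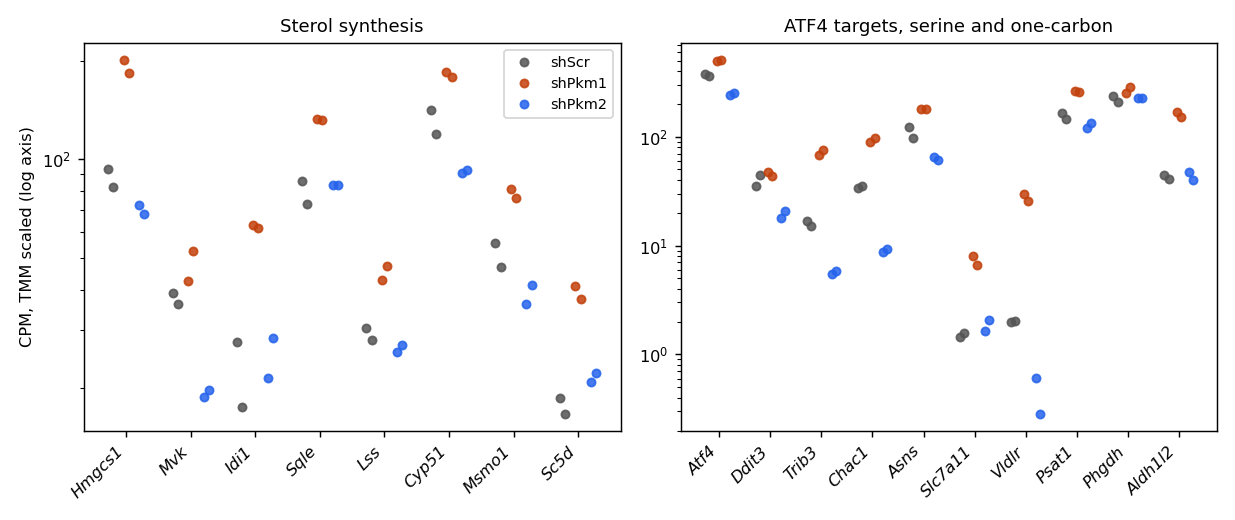
CPM on log axes of 8 genes of sterol synthesis (left) and 10 ATF4 targets and serine or one-carbon genes (right) in each of the 6 libraries, 2 points per group. In the 8 sterol genes both shPkm1 points lie above all points of the other groups, and on the right Ddit3 is a gene whose shPkm1 and shScr points overlap.

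Targets of ATF4 had a positive median in shPkm1 and a negative one in the libraries labelled shPkm2, each against shScr. ATF4 is the transcription factor of the integrated stress response and drives amino acid uptake and synthesis. Of 36 tested genes 19 rose and 3 fell (median 0.29, 0.48 with library totals alone, and -0.68 in the libraries labelled shPkm2), and 16 were apart upward with none apart downward. Atf4 itself was at 378 and 357 CPM in shScr, 499.5 and 502 in shPkm1 and 239.7 and 249.6 in the libraries labelled shPkm2. Trib3, a pseudokinase that dampens the response, was at 16.8 and 15.3, 68.3 and 75.8, and 5.46 and 5.87 CPM. Chac1, which degrades glutathione, was at 34.0 and 35.4, 89.8 and 96.3, and 8.71 and 9.30 CPM. The order was the same in all 3 genes, with shPkm1 highest and the libraries labelled shPkm2 lowest. Asns, which makes asparagine, was at 122 and 97.3 CPM against 178 and 181, Nupr1 at 71.3 and 71.6 against 138 and 156, and Slc7a11, the cystine importer, at 1.46 and 1.58 against 8.09 and 6.67. Vldlr, a lipoprotein receptor, had the largest rise, from 1.96 and 2.03 CPM to 30 and 25.4. The fallen were 5 without shScr replicate 2. The stress genes Atf3 and Ppp1r15a fell, from 14.1 and 13.5 CPM to 6.44 and 6.42 and from 79.2 and 78.4 to 47.3 and 50.5. Ddit3, the death-promoting factor CHOP, was not called, at 35.4 and 44.5 CPM against 47.4 and 43.6, but was called higher without shScr replicate 2 (0.36, adjusted p = 0.00921) and with library totals alone (0.38, adjusted p = 0.033).

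The composite site that ATF4 shares with C/EBP factors was searched for in the same way, as TGATGCAA on both strands. It was present in 9 of 30 ATF4 targets with a promoter entry, in 0.918% of all genes with one and in 0.687% of the tested ones. The genes were listed as ATF4 targets, so this excess follows from the list and tells nothing about shPkm1. Within the list the site was in 5 of the 17 risen genes, 1 of the 3 fallen genes and 3 of the 10 genes without a call. Shown, by the same rule, are promoters of 3 risen genes, with the match in capitals (TTGCATCA on the other strand), at chr3:50443614-50443863 (minus strand), chr2:119350992-119351241 (plus strand) and chr8:94386179-94386428 (plus strand). Herpud1, a component of protein degradation at the endoplasmic reticulum, was at 172 and 153 CPM in shScr and 211 and 222 in shPkm1.
Slc7a11: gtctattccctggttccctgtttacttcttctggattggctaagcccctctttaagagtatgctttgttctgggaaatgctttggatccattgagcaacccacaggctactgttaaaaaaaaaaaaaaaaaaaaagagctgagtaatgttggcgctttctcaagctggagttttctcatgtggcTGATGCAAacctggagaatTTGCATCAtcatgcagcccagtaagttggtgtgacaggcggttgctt
Chac1: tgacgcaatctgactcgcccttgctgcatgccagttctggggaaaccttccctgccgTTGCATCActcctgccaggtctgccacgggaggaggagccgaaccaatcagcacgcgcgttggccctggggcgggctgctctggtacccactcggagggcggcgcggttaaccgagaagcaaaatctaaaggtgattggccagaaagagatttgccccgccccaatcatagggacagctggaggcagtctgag
Herpud1: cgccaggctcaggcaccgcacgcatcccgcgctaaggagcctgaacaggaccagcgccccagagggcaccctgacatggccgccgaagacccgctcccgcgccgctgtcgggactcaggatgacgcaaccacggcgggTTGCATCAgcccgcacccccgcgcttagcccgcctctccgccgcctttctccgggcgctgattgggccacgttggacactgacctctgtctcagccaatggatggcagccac
Slc7a11 holds 2 matches, the first starting 66 bases upstream, and those of Chac1 and Herpud1 start 193 and 112 bases upstream. The window of Slc7a11 lies inside the annotated span of the gene.

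Serine, glycine and one-carbon genes changed in both directions. Of 24 tested 14 rose and 7 fell, with a median of 0.72, and the fallen were 4 without either shPkm1 library. Psat1, of serine synthesis, was at 164 and 146 CPM in shScr, 264 and 258 in shPkm1 and 121 and 133 in the libraries labelled shPkm2. Aldh1l2, the mitochondrial 10-formyltetrahydrofolate dehydrogenase, was at 44.2 and 40.7, 169 and 152, and 47.2 and 40.3 CPM. Shmt1, the cytosolic serine hydroxymethyltransferase, fell from 13.9 and 11.3 CPM to 6.97 and 6.32, and Gldc, of glycine cleavage, from 6.15 and 8.36 to 2.77 and 3.74. Phgdh, which opens the pathway and has the highest mean TPM, was called higher by 0.28, without a call when shScr replicate 2 (0.20, adjusted p = 0.105) or shPkm1 replicate 2 (0.19, adjusted p = 0.242) was left out.

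Chaperones and folding enzymes of the endoplasmic reticulum rose in 17 of 33 tested genes and fell in 3, with a median of 0.28 (0.48 with library totals alone), and without shPkm1 replicate 1 the risen were 11 and the fallen 1. Ero1a, which oxidizes disulfide bonds, was at 31.8 and 22.5 CPM in shScr and 106 and 87.5 in shPkm1, and Calr, a calcium-binding chaperone with the highest mean TPM, at 1355 and 1494 against 2298 and 2494. The cytosolic heat shock genes had 7 of 32 higher and 12 lower. These were 21.9% and 37.5% of the group, against 31.8% and 31.4% of all genes. Hspb1, which is also in the muscle list, fell from 554 and 508 CPM to 228 and 257, and Hsp90ab1 was not called (log2 fold change -0.08). With library totals alone 11 of these genes were called higher and 5 lower, and without shPkm1 replicate 1 the lower genes were 6.

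Genes of mitochondrial energy metabolism were lower. Of 82 tested nuclear genes for respiratory chain subunits 76 fell and none rose, with a median of -0.81, against 31.4% of all genes called lower. The libraries labelled shPkm2 had a median of -0.83 against the same controls, and 7 of the 82 genes were lower in shPkm1 than in both. Their medians were also below 0 for pyruvate fate and the TCA cycle (-0.40), fatty acid oxidation (-0.41) and glycolysis (-0.26). Atp5b, the catalytic subunit of ATP synthase and the most abundant by TPM, was at 3735 and 3371 CPM in shScr, 1508 and 1638 in shPkm1 and 2190 and 2310 in the libraries labelled shPkm2. The muscle-type cytochrome oxidase subunits Cox8b and Cox6a2 were at 66.6 and 44.0 against 3.99 and 4.95 CPM and at 136 and 58.1 against 23.2 and 18.4. Both subunits are also counted in the muscle list. Among 46 genes of pyruvate fate and the TCA cycle 31 fell and 7 rose, 4 without shPkm1 replicate 1 (median -0.50, and -0.30 with library totals alone). Sdhd, a subunit of succinate dehydrogenase, was at 157 and 133 CPM against 61.8 and 64.7. Against this direction, Slc25a1, which exports citrate from mitochondria, rose from 51.7 and 55.6 CPM to 133 and 139. Of 44 fatty acid oxidation genes 27 fell and 4 rose (median -0.38, and -0.19 with library totals alone), with 17 lower without shPkm1 replicate 1 and 16 lower with library totals alone. Acadl, an acyl-CoA dehydrogenase, was at 335 and 283 CPM against 120 and 109, and Fabp3, the fatty acid carrier of muscle, at 64.1 and 44.3 against 5.70 and 6.12. Cpt1a, the carnitine shuttle enzyme, rose from 46.9 and 64.0 CPM to 91.5 and 94.0. Of 32 genes of glycolysis and gluconeogenesis 16 fell and 7 rose, 4 without shPkm1 replicate 1 (median -0.27, and -0.07 with library totals alone). The fallen glycolysis genes include Pkm, the target of the hairpin, whose fall was set by the design. Pck2, which makes phosphoenolpyruvate in mitochondria, rose from 57.4 and 50.5 CPM to 196 and 219, and Pcx, which makes oxaloacetate, fell from 182 and 183 to 50.1 and 56.8.

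Genes for ribosomal proteins and the proteasome were lower in most members. Of 82 tested cytosolic ribosomal protein genes 65 fell and none rose, with a median of -0.52, or -0.32 with library totals alone, and -0.50 in the libraries labelled shPkm2. This count was 43 with library totals alone and 37 without shPkm1 replicate 1. Rps27 was at 898 and 883 CPM in shScr and 389 and 382 in shPkm1, and Rpl41, with the highest mean TPM, at 4256 and 3069 against 1582 and 1761. Reads of ribosomal protein genes may be shared with their processed pseudogenes, so single values are uncertain. Of 46 proteasome genes 35 fell and 1 rose (median -0.44, -0.25 with library totals alone, and -0.49 in the libraries labelled shPkm2). The fallen were 22 with library totals alone and 23 without shPkm1 replicate 1, and the risen 3 without shScr replicate 1. Psmb10 and Psmb8, the inducible subunits of the immunoproteasome, fell from 105 and 110 CPM to 13.9 and 17.9 and from 15.7 and 14.6 to 4.10 and 4.5. Psmc3, a subunit of the regulatory particle, was at 1129 and 879 CPM against 366 and 407. The exception, Psmc6, rose from 69.7 and 51.5 CPM to 122 and 109. Lysosome and autophagy genes fell in 30 of 55 and rose in 8 (median -0.33, -0.14 with library totals alone, and -0.25 in the libraries labelled shPkm2), with 19 lower with library totals alone and 5 higher without shPkm1 replicate 2.

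Respiratory chain, ribosomal protein and proteasome genes have short transcripts, and the fold change moved with transcript length over all genes. The median log2 fold change was -0.38 in 508 genes whose longest annotated transcript was under 1000 bases, -0.23 from 1000 to 1500, -0.11 from 1500 to 2500, -0.02 from 2500 to 4000, 0.11 from 4000 to 7000 and 0.28 in 1148 genes of 7000 bases or more. The libraries labelled shPkm2 had -0.40 in the shortest and 0.37 in the longest class. Between the 2 controls the shortest class differed by 0.10. Median lengths were 1025.5 bases for respiratory chain genes, 1076.5 for ribosomal proteins, 1895 for the proteasome, 2779.5 for pyruvate fate and the TCA cycle, 3083 for fatty acid oxidation, 3194 for glycolysis, 3338 for lysosome and autophagy genes, 6450 for collagens and 3433 for all tested genes. The medians of the respiratory chain (-0.81) and ribosomal protein (-0.52) groups were below that of their length class, and that of the collagens (1.53) was above its class. The part of length in these groups was not tested.

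**Figure D4:**
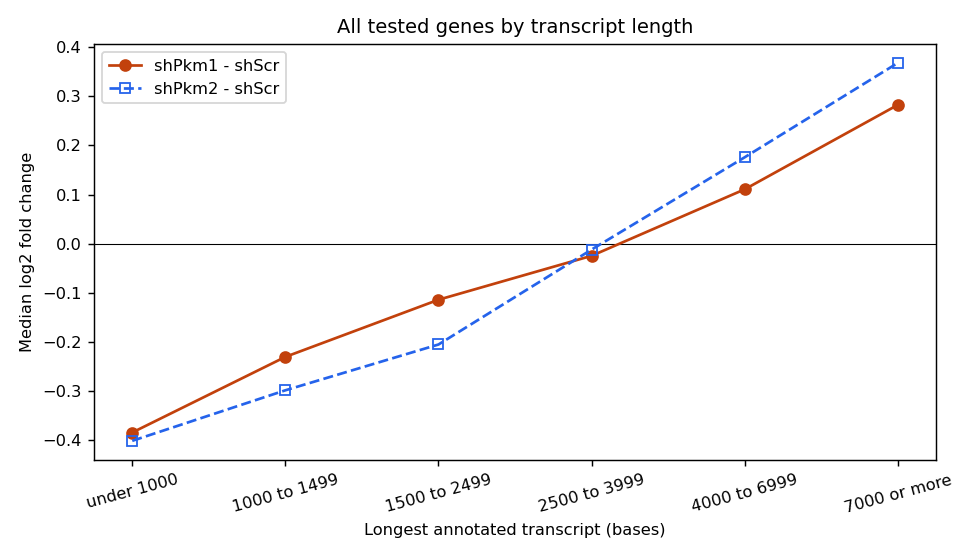
Median log2 fold change of all tested genes in 6 classes of transcript length, for shPkm1 and for the libraries labelled shPkm2, each against shScr. Both lines climb from -0.38 and -0.40 in the shortest class to 0.28 and 0.37 in the longest.

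Redox genes were called in both directions, at shares not far from the background. Of 55 genes of the Nrf2 and glutathione group 23 rose (41.8%) and 16 fell (29.1%), and the fallen were 9 without shPkm1 replicate 1. The extracellular superoxide dismutase Sod3 was at 54.1 and 58.2 CPM in shScr, 448 and 443 in shPkm1 and 26.4 and 31.0 in the libraries labelled shPkm2. Gpx4, which protects membranes from lipid peroxidation, fell from 1443 and 1094 CPM to 465 and 516. Fth1, the heavy chain of the iron store ferritin and the member with the highest mean TPM, fell from 5921 and 4253 CPM to 1876 and 1963, and was at 2947 and 3283 in the libraries labelled shPkm2. Of 21 metal genes 8 rose, 4 fell and 9 had no call, and the fallen were 8 without shScr replicate 1. The zinc importer Slc39a10 rose from 11.3 and 10.7 CPM to 41.8 and 39.3 and the zinc exporter Slc30a1 fell from 5.64 and 6.10 to 1.86 and 2.33.

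Hypoxia and p53 targets also held members of both signs. Of 33 hypoxia targets 17 rose and 8 fell (median 0.37, 0.21 without shScr replicate 2 and 0.57 with library totals alone), and the fallen were 5 without either shPkm1 library. Car9, a membrane carbonic anhydrase, was at 4.44 and 1.30 CPM in shScr, 45 and 46.4 in shPkm1 and 0.235 and 0.191 in the libraries labelled shPkm2, while Hk2, a hexokinase of glycolysis, fell from 98.6 and 85.8 CPM to 27.3 and 32.1. Pgk1, the target with the highest mean TPM, was not called. Of 39 p53 targets 17 fell and 6 rose, 12 with library totals alone. Cdkn1a, an inhibitor of cyclin-dependent kinases, was at 4080 and 3679 CPM in shScr, 2149 and 2047 in shPkm1 and 263 and 290.2 in the libraries labelled shPkm2. Cdkn1c, a related inhibitor and an imprinted gene, was at 17.2 and 6.61, 61.1 and 58.4, and 0.377 and 0.143 CPM, highest in shPkm1. The shPkm1 and shScr libraries did not overlap in either gene.

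Changes were not even over the genome. The median log2 fold change of tested genes was 0.33 on chromosome 1 (742 genes, 50.1% called higher) and 0.38 on chromosome 13 (475 genes, 50.1% higher), and lowest on chromosome 10 (-0.20, 625 genes, 44.0% called lower). On chromosome 1 the libraries labelled shPkm2 had a median of -0.02, while on chromosome 13 they had 0.29. The 2 shPkm1 libraries gave 0.34 and 0.30 on chromosome 1 relative to the control mean, and the 2 controls 0.00 each. All 10 windows of 20 Mb along chromosome 1 had a positive median against shScr, from 0.11 to 0.58, and against the libraries labelled shPkm2, from 0.14 to 0.48. On chromosome 10 all 7 windows were negative against the libraries labelled shPkm2, from -0.45 to -0.23, and 5 of 7 were negative against shScr. On chromosome 13 the window from 20 to 40 Mb (96 genes) was at -0.12 against shScr, and the others were at 0.21 to 0.68. Chromosome X stood at 0.16 for shPkm1 and at 0.39 for the libraries labelled shPkm2. Genes described here that lie on chromosome 1 include risen ones, such as Col3a1 and Fn1, and fallen ones, such as Myog and Atf3.

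**Figure D5:**
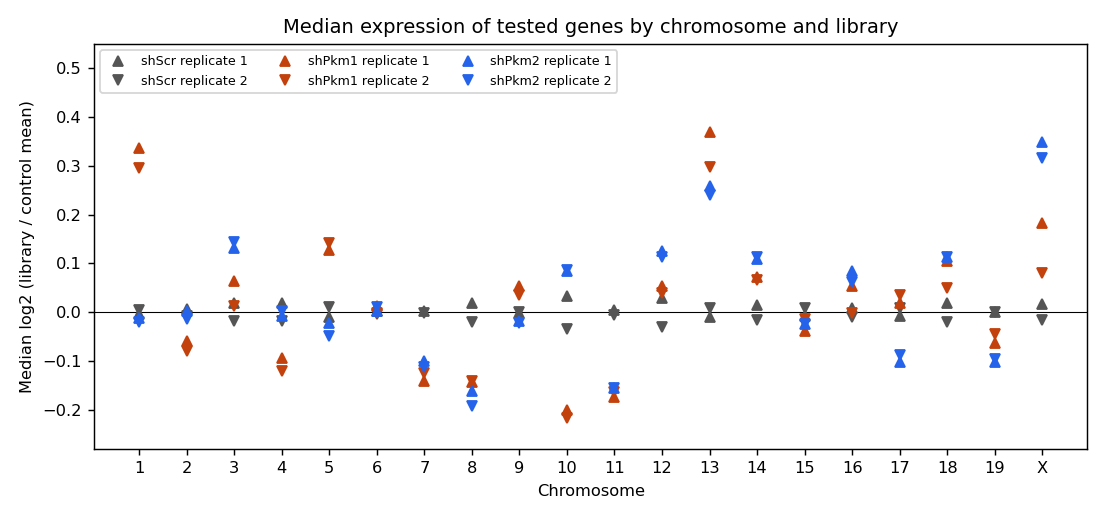
Median over the tested genes of each chromosome of log2 (CPM + 0.5) in a library minus log2 (mean control CPM + 0.5), with 1 point for each of the 6 libraries. On chromosome 1 the shPkm1 points (0.34 and 0.30) are separate from all others, and on chromosome 10 they lie at -0.20 and -0.22 with the libraries labelled shPkm2 above 0.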

How the data were processed

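RNA from 6 libraries of C2C12 cells was sequenced by a commercial provider, per the labels' protocols. The authors deposited 1 table with an estimated count and a TPM value for each of 57920 RefSeq transcripts and library. HISAT, StringTie, Bowtie, RSEM and DESeq2 and the build mm10 are named in the submitters' processing notes without roles or versions, and strandedness is not given in the sources used here, so overlapping genes cannot be told apart. Deposited TPM values were used to find the most abundant member of a group and to give summed levels of marker lists, without a test: the median gene was 0.38 higher (log2) in shPkm1 than in shScr on that scale. Deposited FPKM values and group means were not used.

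Estimated counts were summed per NCBI gene and rounded. The 113 genes without a symbol held at most 0.148% of a library. Genes were filtered with filterByExpr (minimum count 10, minimum total 15), scaled by TMM and tested with edgeR 4.0.16 in R 4.3.3 (quasi-likelihood, 1 coefficient per group over all 6 libraries, two-sided, Benjamini-Hochberg over 12643 genes, threshold 0.05). Adjusted p values given for an alternative come from its own fit, over the genes it tests. Each SE was taken as the size of the log2 fold change divided by the square root of F. DESeq2 1.42.0 was an alternative. Transcript lengths are those of the longest GENCODE M21 transcript. Tests were checked on simulated counts. Figures were drawn with matplotlib 3.10.9 in Python 3.11.15.

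The comparison, the gene groups and the rules were chosen with earlier results of these data known. Groups are described by counts and medians, without a test. Genes were named by rule: Pkm; the 12 largest rises and 12 largest falls outside the muscle, cell cycle and interferon lists (called, mean of at least 50 counts, no overlap); the 10 most apart genes per direction; and per group up to 2 risen and 2 fallen members and the member with the highest mean TPM. Of the 244 genes this gives, those most useful to the description are printed. Others, such as Col1a1, Fn1, Hmgcs1 and Trib3, the group members given only a log2 fold change, and the single markers of other lineages, present or near 0, were chosen after their values were seen. A table of NCBI symbols was used for names, and older names in the groups were matched only where no current gene bears them. Alternatives were DESeq2 size factors, library totals only, no filter, a mean of at least 50 counts, DESeq2, a replicate block, a fit of only the 4 libraries and leaving out each library.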

Additional observations from a re-analysis of the deposited data

How the results depend on the processing

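Of 279 genes named by rule or added, tested against shScr under 13 alternatives, 3547 values kept direction and side of the threshold, 58 lost the call, 11 gained it and 1 reversed: Igfbp2, at 0.31 without shScr replicate 2 and -0.51 without shScr replicate 1. Without 1 library at a time, the genes called ranged from 3164 to 4116 higher and from 2883 to 4169 lower, those at least 2-fold from 1417 to 1775 and from 1072 to 1334, the apart genes from 1155 to 1751 and from 490 to 1263, and those apart at least 2-fold from 586 to 675 and from 173 to 231. With a mean of at least 50 counts 361 and 114 genes were apart at least 2-fold, where fewer genes were tested. Library totals only gave 5116 higher and 2656 lower, DESeq2 3507 and 3567. Of the counts of group members over all alternatives, 105 moved by over 1.5 times and 1273 did not. Histone genes, whose median of -1.21 ranged from -1.35 to 0.07 over the alternatives, had 29 of 50 members lower, 18 with DESeq2 and 6 with a mean of at least 50 counts. Replicate numbers are shared by the groups, but the deviations of same-numbered libraries correlated at only -0.03 between shScr and shPkm1, so they share a number only; with a replicate block 3992 genes were higher and 3930 lower. Differences of genes with few counts are limited by depth, and genes under the filter were not tested.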

Other observations

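Genes of axon guidance, whose ligands and receptors also steer migrating mesenchymal cells, were called higher in 24 of 52 and lower in 13. The semaphorins Sema6d and Sema3f rose from 0.887 and 0.678 CPM to 6.92 and 7.33 and from 3.80 and 3.73 to 23.3 and 28.5. The receptors Epha7 and Robo2 fell, from 6.34 and 9.10 CPM to 1.86 and 1.16 and from 8.94 and 18 to 3.35 and 2.48, and both were highest in the libraries labelled shPkm2, at 19.8 and 18.2 and at 22.1 and 20. Without shPkm1 replicate 2 the higher genes were 15. Of 21 circadian clock genes 11 rose and 4 fell, and the fallen were 2 without either shPkm1 library. The period genes Per3 and Per2 were at 7.16 and 6.61 CPM in shScr against 26.4 and 23.1 in shPkm1 and at 9.95 and 7.74 against 27.0 and 26.2, and the repressor Cry1 at 28.2 and 25.3 against 13.7 and 16.1.

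Among genes of lipid synthesis outside the sterol branch, 16 of 42 rose and 11 fell, and the fallen were 7 without shPkm1 replicate 1. The main counts were 38.1% higher and 26.2% lower, near the 31.8% and 31.4% of all genes. Scd2, a fatty acid desaturase with the highest mean TPM, was at 811 and 765 CPM in shScr and 1396 and 1362 in shPkm1. Agpat3, an acyltransferase, fell from 646 and 505 CPM to 137 and 149.9, and Pnpla2, the triglyceride lipase, from 94.2 and 82.9 to 36.9 and 38.9. In the list of chromatin remodeller subunits 7 of 27 rose and 7 fell, 11 and 3 with library totals alone, and the fallen were 4 without shPkm1 replicate 1. In the main fit this was 25.9% in each direction, below the 31.8% and 31.4% of all genes, so the counts show no change particular to this list. Smarca2, an ATPase of chromatin remodelling complexes, was at 8.68 and 12.5 CPM in shScr, 47.7 and 46.7 in shPkm1 and 20.1 and 18.7 in the libraries labelled shPkm2. Notch genes had 10 of 26 higher and 5 lower, and the fallen were 3 without shPkm1 replicate 1. In the main fit 38.5% of the Notch genes were higher and 19.2% lower. The ligand Jag1 rose from 5.45 and 5.99 CPM to 24.5 and 22, and the regulator Nrarp from 1.01 and 1.02 to 4.58 and 4.55.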
